A study of Mus musculus with 8 samples.

Results

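The genes described here encode the 5 subunits of the transcription factor NF-kB (Nfkb1, Nfkb2, Rel, Rela and Relb) and 5 proteins that restrain or shape its activity (Nfkbia, Nfkbib, Nfkbie, Nfkbiz and Tnfaip3). They were chosen by name, and all 10 were found among the 15681 genes of the deposited table and passed the filter that left 12489 genes for testing. The table holds RNA-seq libraries of mature B cells sorted from mouse spleen and activated in culture with LPS, a bacterial cell wall component, at 20 µg/ml and the cytokine IL-4 at 20 ng/ml, then harvested at 72 h. The mice were 8 to 10 weeks old and fell into 4 groups of 2 libraries: a heterozygous control (HET), a Myc knock-out (Myc_KO), a Max knock-out (Max_KO) and a double knock-out (double_KO). Neither the allele that made the controls heterozygous nor the Cre or promoter behind the knock-outs was given in the sources used here. The labels do not say whether both libraries of a group are from different animals, so the p-values measure the spread between these libraries, which may be technical.

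NF-kB proteins bind DNA as dimers. In resting cells IkB proteins such as those of Nfkbia, Nfkbib and Nfkbie hold the dimers in the cytoplasm, and LPS acting through Toll-like receptors activates the IKK kinase complex, which marks the IkB proteins for destruction. Several inhibitors, among them Nfkbia and the A20 protein of Tnfaip3, are themselves NF-kB targets and close a negative feedback loop. In B cells the Rel and Nfkb1 products are known for their part in proliferation after LPS. Myc is a transcription factor that drives growth in activated lymphocytes and binds DNA as a dimer with Max.

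Promoter sequences from RefSeq (GRCm38.p6) covered 7 of the 10 genes with 10 promoters of 300 bases, 250 before the transcription start and 50 after it. Nfkb1, Relb and Nfkbiz had no entry. Both strands were searched for the consensus kB site, the motif bound by NF-kB, and for the E-box CACGTG, the motif bound by Myc and Max. The promoters of Rel and Tnfaip3 are shown because both genes changed, and that of Nfkbia because it did not pass the test although it is a textbook feedback target. All lie on the minus strand and are printed 5′ to 3′ along the gene, with motif matches in capitals.
Tnfaip3 chr10:19015361-19015660: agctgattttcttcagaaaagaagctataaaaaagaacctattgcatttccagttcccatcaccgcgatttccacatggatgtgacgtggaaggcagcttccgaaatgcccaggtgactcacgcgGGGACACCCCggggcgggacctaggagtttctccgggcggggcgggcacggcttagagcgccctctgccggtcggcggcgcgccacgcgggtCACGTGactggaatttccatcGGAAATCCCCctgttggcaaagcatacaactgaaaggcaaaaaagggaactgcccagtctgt
Rel chr11:23770920-23771219: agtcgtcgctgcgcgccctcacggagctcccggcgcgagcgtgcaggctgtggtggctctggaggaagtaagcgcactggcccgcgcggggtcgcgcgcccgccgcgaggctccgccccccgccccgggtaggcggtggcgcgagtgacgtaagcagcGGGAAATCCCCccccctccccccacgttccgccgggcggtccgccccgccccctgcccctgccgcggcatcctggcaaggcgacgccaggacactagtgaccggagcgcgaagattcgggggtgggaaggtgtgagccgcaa
Nfkbia chr12:55492598-55492897: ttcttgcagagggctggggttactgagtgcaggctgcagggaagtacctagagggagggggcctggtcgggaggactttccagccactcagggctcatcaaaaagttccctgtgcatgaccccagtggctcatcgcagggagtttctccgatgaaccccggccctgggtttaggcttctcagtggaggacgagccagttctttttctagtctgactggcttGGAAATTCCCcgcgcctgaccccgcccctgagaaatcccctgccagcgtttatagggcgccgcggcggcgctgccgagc
With the start site counted as 1 and the base before it as -1, the kB matches of Tnfaip3 began at -125 and -12 and its E-box at -33. Rel had overlapping kB matches from -92 and -91, and Nfkbia had a match from -29. In all, 7 of the 10 promoters held a kB match and 1 held an E-box. The promoters with a kB match were all 3 of Nfkb2, those of Rel, Nfkbia and Nfkbie, and the first of the 2 of Tnfaip3. The second of Tnfaip3 and those of Rela and Nfkbib held none in these windows. Of all 32851 RefSeq promoters of this length, 8.46% held a kB match and 7.15% held an E-box. Tnfaip3 was the only member of the 7 with an E-box. Genes with a kB match thus included members that changed and members that did not pass the test.

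Levels are given in RPM (reads per 1000000 reads) on the authors' scale, which divides by an effective library size. The libraries held 14.883 M to 17.908 M estimated reads. The titles and the descriptions of the samples give different genotypes for 2 libraries, double_KO 1 (described as a Myc knock-out) and Myc_KO 2 (described as a double knock-out). Groups follow the titles, which are also the column names, and calls of members that changed under the other reading are given with the member. Max read 55.0 and 54.5 RPM in the control libraries, 16.4 and 15.5 in Max_KO, 28.6 and 31.2 in double_KO, and 70.5 and 59.8 in Myc_KO. The level of 59.8 RPM in Myc_KO 2 and that of 28.6 RPM in double_KO 1 go with the titles and against the descriptions. Myc read 111 and 116 RPM in the control, 48.3 and 55.8 in Myc_KO, 38.8 and 55.4 in double_KO, and 192 and 176 in Max_KO. Transcripts of Myc and Max were therefore lower in the groups named as their knock-outs, but were not absent. Both double_KO libraries held more Max transcript than both Max_KO libraries. In these pooled cells, fewer cells of a type and less RNA per cell cannot be told apart.

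Of the 10 genes, 4 passed the test in each comparison with the control (limma, adjusted p below 0.05 over all genes tested). In Myc_KO, Nfkbiz, Tnfaip3 and Rel rose and Nfkb1 fell, where 45.4% of all genes passed (24% higher and 21.4% lower). In Max_KO, Nfkbiz, Tnfaip3, Rel and Rela rose, where 39.7% of all genes passed (22.3% higher and 17.4% lower). In double_KO, Nfkbiz, Tnfaip3, Rel and Rela rose, where 38.6% of all genes passed (21.8% higher and 16.8% lower). The total counts of members are near the total shares of 45.4%, 39.7% and 38.6%, so the number that changed is not in itself a result about NF-kB. The counts by direction are less near their shares, as all 4 rose in Max_KO and in double_KO. This was not tested for the members as a set. The median log2 change of the 10 genes was 0.21, 0.20 and 0.16 in that order of groups, beside 0.00, 0.02 and 0.02 for all genes. The 3 comparisons share their 2 control libraries. With every library scaled to the same total, the medians of all genes were 0.15, 0.12 and 0.14, and the share of calls that were higher moved from 52.8% to 66.4% in Myc_KO, while in Max_KO it went from 56.2% to 66.7% and in double_KO from 56.6% to 68.9%.

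**Figure D1:**
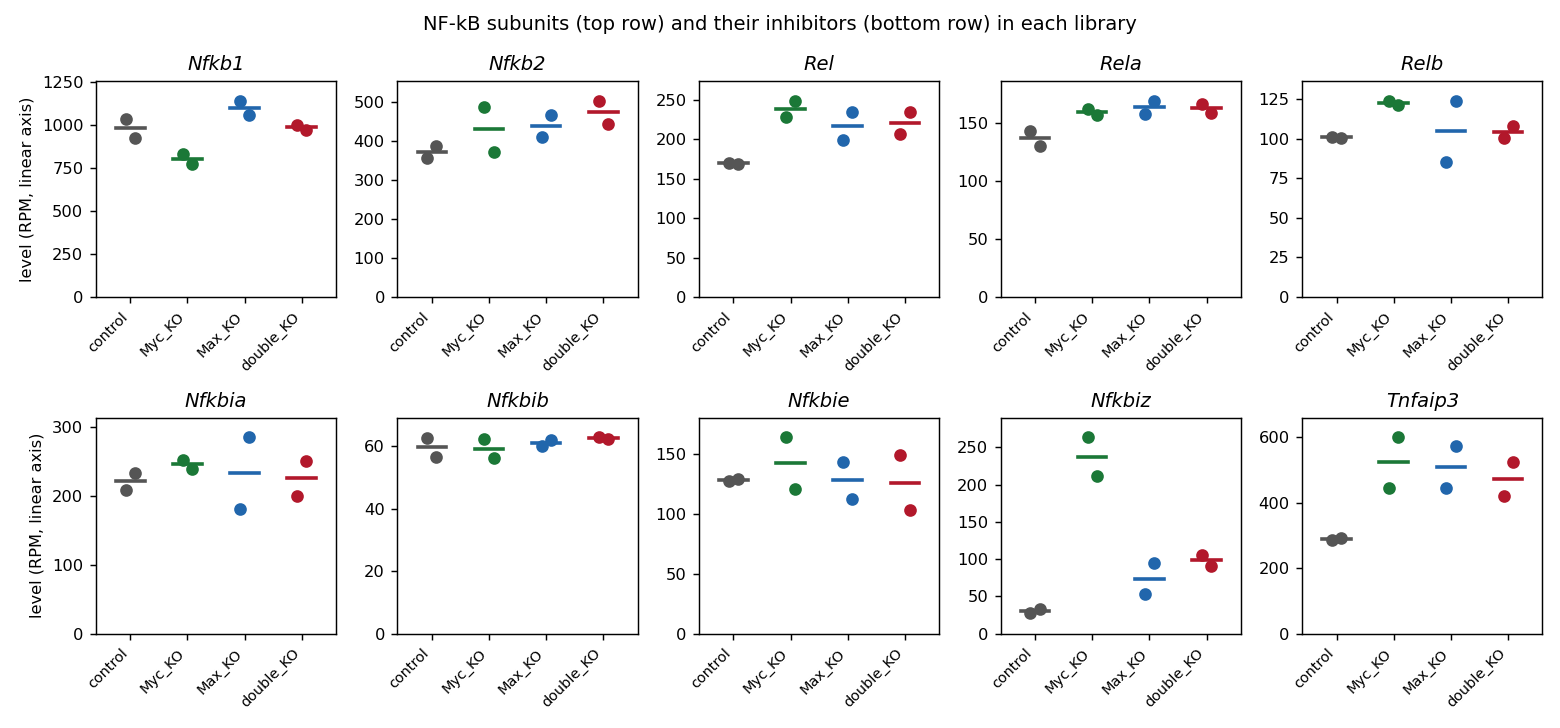
Level of each NF-kB subunit (top row) and inhibitor (bottom row) in RPM on a linear axis from 0, with a point for each library and a bar at the group mean. The Nfkbiz points of Myc_KO lie at 263 and 211 RPM, above all other libraries, and the Tnfaip3 and Rel points of all 6 knock-out libraries lie above both controls.

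Among the subunits, Rel rose in all 3 knock-out groups. Rel encodes c-Rel, a subunit with a transactivation domain that is most abundant in lymphoid cells. The gene (ENSMUSG00000020275) lies on chromosome 11 of GRCm38, from 23736847 to 23770970. Its level was 170 and 169 RPM in the control libraries, 228 and 249 in Myc_KO, 199 and 234 in Max_KO, and 207 and 235 in double_KO. All 6 knock-out libraries lay above both controls, and the knock-out groups overlapped each other. The change was 1.40-fold in Myc_KO (log2 0.49, SE 0.10, limma adjusted p = 0.00589), 1.27-fold in Max_KO (log2 0.35, adjusted p = 0.0287) and 1.30-fold in double_KO (log2 0.38, adjusted p = 0.0211). The call in Myc_KO held under all 20 alternatives run. The call in Max_KO was lost without control 1 (0.119), control 2 (0.114) or Max_KO 2 (0.171), with quantile normalization (0.0655) and with no mean-variance trend (0.0751). That in double_KO was lost with no trend (0.061) and without control 1 (0.0969), control 2 (0.0935) or double_KO 2 (0.124).

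Rela encodes p65, the most widely expressed subunit with a transactivation domain. The gene (ENSMUSG00000024927) lies on chromosome 19, from 5637483 to 5648130. It read 144 and 130 RPM in the control, 162 and 157 in Myc_KO, 158 and 169 in Max_KO, and 167 and 159 in double_KO. The knock-out libraries all lay above both controls by a small margin. The difference was 1.196-fold in Max_KO (log2 0.26, SE 0.08, limma adjusted p = 0.04) and 1.19-fold in double_KO (log2 0.25, adjusted p = 0.0441), and it did not pass in Myc_KO (log2 0.22, adjusted p = 0.0616). These are the least firm calls of the subunits: 9 of 22 alternatives kept that in Max_KO and 7 of 20 kept that in double_KO. Both were lost without control 1, control 2, double_KO 1 or double_KO 2, that in Max_KO also without either Max_KO library, and that in double_KO also without either Myc_KO library. With groups from the descriptions the call in double_KO was lost (log2 0.21, adjusted p = 0.087) and Rela passed in Myc_KO (log2 0.26, adjusted p = 0.041), so the groups in which it was called depended on the labels used. With same-total scaling it also passed in Myc_KO (adjusted p = 0.00555). Adjusted p-values over all alternatives ran from 0.0068 to 0.222 in Max_KO and from 0.0061 to 0.235 in double_KO.

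Nfkb1 encodes p105, the precursor of the p50 subunit, which has no transactivation domain. The gene (ENSMUSG00000028163) lies on chromosome 3, from 135584655 to 135691547. It read 1035 and 924 RPM in the control, 830 and 772 in Myc_KO, 1141 and 1058 in Max_KO, and 1001 and 973 in double_KO. The Myc_KO libraries were the lowest of all 8, and the double_KO libraries lay between the controls. Nfkb1 fell 1.22-fold in Myc_KO (log2 -0.29, SE 0.09, limma adjusted p = 0.0297). The direction flipped with quantile normalization (log2 0.04, adjusted p = 0.689), and the call was also lost with same-total scaling (0.162), with groups from the descriptions (0.602), with the 6 undisputed libraries (0.177), with no trend (0.0704), with only the groups compared (0.0556), without control 1 (0.178) and without Myc_KO 2 (0.128). In the comparisons with the control where it was not called, Nfkb1 passed in Max_KO with same-total scaling (0.0213) and quantile normalization (0.00241), and in double_KO with quantile normalization (0.0112). Nfkb1 was 1.37-fold higher in Max_KO than in Myc_KO (log2 0.46, adjusted p = 0.0317). Only 9 of 20 alternatives kept that call. It was lost with groups from the descriptions (log2 0.27, adjusted p = 0.517), with the 6 undisputed libraries (0.141), with only the groups compared (0.117), with no trend (0.106) and on leaving out any library other than Max_KO 2 (0.0544 to 0.172).

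Nfkb2 and Relb, which encode the p100 precursor of p52 and its usual partner in the alternative pathway, did not pass in any comparison with the control in the fit by titles. Nfkb2 read 356 and 387 RPM in the control, 487 and 372 in Myc_KO, 410 and 466 in Max_KO, and 503 and 444 in double_KO. In double_KO, both libraries lay above both controls (log2 0.35, 95% interval 0.04 to 0.66, limma adjusted p = 0.0757), and 5 of 20 alternatives called the difference: same-total scaling (0.0263), the title number series as a term (0.036), only the groups compared (0.0197), and leaving out either Myc_KO library (0.029 each). In Myc_KO the difference was 0.20 (adjusted p = 0.269), and it passed with groups from the descriptions (log2 0.42, adjusted p = 0.0203), with the 6 undisputed libraries (0.39, adjusted p = 0.0433) and without Myc_KO 2 (0.39, adjusted p = 0.0418). Without Myc_KO 1 it was 0.002. With groups from the descriptions the difference in double_KO was 0.13 (adjusted p = 0.385). Relb read 101 and 100 RPM in the control, 124 and 121 in Myc_KO, 85.4 and 124 in Max_KO, and 100 and 108 in double_KO. Its difference in Myc_KO was 0.28 on the log2 scale (95% interval -0.07 to 0.63, adjusted p = 0.171), and the Max_KO libraries lay on either side of the control. This difference passed with only the groups compared (0.0315) and without Max_KO 1 (0.027) or Max_KO 2 (0.0278). Nfkb1, Nfkb2 and Nfkbib overlap other genes of the table, and it was not stated whether the counting used strand.

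Divided by the joined length of all annotated exons, Nfkb1 and Nfkb2 were the most abundant subunit transcripts in the control. They stood at 81.2 ± 6.54 and 81.0 ± 4.86 RPM per kb (SD, n = 2) and did not differ beyond their spread. These lengths were 12.061 kb for Nfkb1 and 4.584 kb for Nfkb2, whose control means before division were 980 and 371 RPM. Rankings per length, here and below, thus depend on the isoforms behind each length. Rela followed at 44.5 ± 3.11 RPM per kb, then Relb at 25.9 ± 0.18 and Rel at 22.7 ± 0.07. Of the 5 subunit transcripts together, per length, Nfkb1 made up 33.1% and 30.4% in the control libraries and 23.7% and 24.6% in Myc_KO. The share of Rel was 8.78% and 8.99% in the control and 10.5% and 12.8% in Myc_KO. In Max_KO the share of Nfkb1 was 33.3% and 28.5%, which overlapped the control, and in double_KO it was 27.6% and 28.0%. A share needs no scaling between libraries, but it depends on the isoforms behind each length, and with 2 libraries a group it was not tested.

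**Figure D2:**
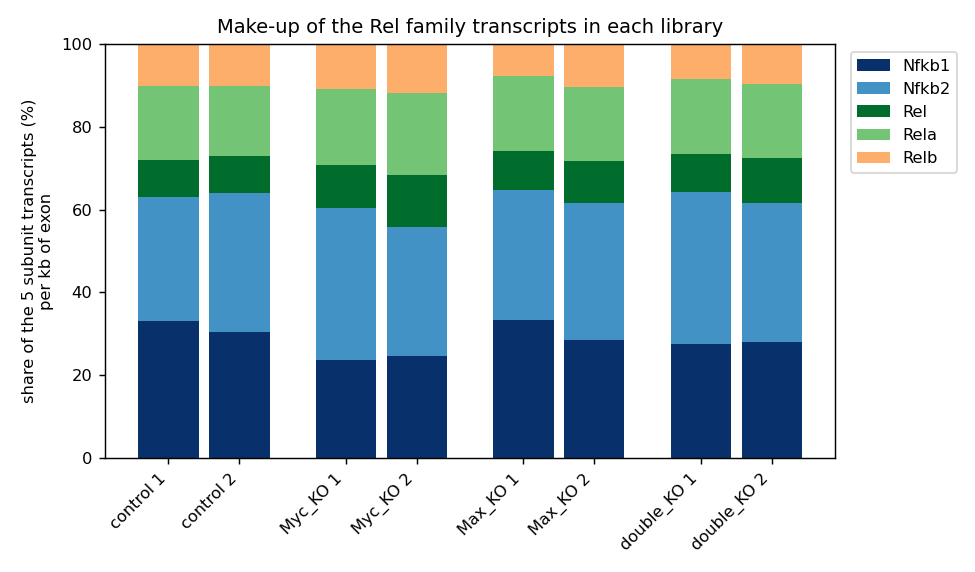
Share (%) of each of the 5 subunit genes in the sum of their transcripts per kb of exon, with a stacked bar for each library. Nfkb1 takes 23.7% and 24.6% in the Myc_KO libraries against 33.1% and 30.4% in the controls, and the share of Rel is 10.5% and 12.8% against 8.78% and 8.99%.

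Among the inhibitors, Nfkbiz had the largest change of the 10 genes in all 3 groups. It encodes IkB-zeta, an atypical nuclear IkB protein that is induced by Toll-like receptor signals and acts with p50 on a subset of secondary response genes. The gene (ENSMUSG00000035356) lies on chromosome 16, from 55811375 to 55838899. Its level was 28.0 and 32.8 RPM in the control, 263 and 211 in Myc_KO, 53.0 and 94.99 in Max_KO, and 105 and 91.4 in double_KO. The order of the groups was control, Max_KO, double_KO and Myc_KO, and only Max_KO and double_KO overlapped. Nfkbiz rose 7.78-fold in Myc_KO (log2 2.96, SE 0.25, limma adjusted p = 8.38e-05), 2.34-fold in Max_KO (log2 1.23, adjusted p = 0.00561) and 3.24-fold in double_KO (log2 1.69, adjusted p = 0.00139). The calls in Myc_KO and double_KO held under all 20 alternatives each, with log2 changes from 2.46 to 3.12 and from 1.58 to 2.20. The call in Max_KO was lost with groups from the descriptions (0.085) and without control 1 (0.0514), and its log2 change ran from 0.81 without Max_KO 2 to 1.65 without Max_KO 1. Per length, Nfkbiz went from 6.06 ± 0.67 RPM per kb in the control, the lowest of the 10 genes, to 47.3 ± 7.35 in Myc_KO (SD, n = 2).

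Nfkbiz also separated the knock-out groups. It was 3.32-fold lower in Max_KO than in Myc_KO (log2 -1.73, SE 0.25, limma adjusted p = 0.0129), in a comparison where 4.12% of all genes passed. This call was lost with groups from the descriptions (0.409), with only the groups compared (0.0695), with no mean-variance trend (0.0668) and without Myc_KO 1 (0.0758), while the log2 difference stayed between -2.15 and -1.23. Nfkbiz and Nfkb1 were the 2 members called there. None of the 10 genes passed between double_KO and Myc_KO, where 0.456% of all genes did, with 2 members at an unadjusted p below 0.05. The difference of Nfkbiz there was -1.27 on the log2 scale (95% interval -1.83 to -0.70, adjusted p = 0.0851), and both double_KO libraries lay below both Myc_KO libraries. None passed between double_KO and Max_KO either, where 0.04% of all genes did and 0 members had an unadjusted p below 0.05.

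Tnfaip3, which encodes the ubiquitin-editing enzyme A20, was the other inhibitor that changed. The gene (ENSMUSG00000019850) lies on chromosome 10, from 19000910 to 19015657. It read 287 and 291 RPM in the control, 446 and 600 in Myc_KO, 446 and 574 in Max_KO, and 422 and 523 in double_KO. All 6 knock-out libraries lay above both controls, and the 3 knock-out groups overlapped. The rise was 1.79-fold in Myc_KO (log2 0.84, SE 0.17, limma adjusted p = 0.00496), 1.75-fold in Max_KO (log2 0.81, adjusted p = 0.0072) and 1.62-fold in double_KO (log2 0.70, adjusted p = 0.0135). The call in Myc_KO held under all 20 alternatives. That in Max_KO was lost without control 1 (0.0505), and that in double_KO without control 1 (0.0765), control 2 (0.0662) or double_KO 2 (0.0835). In each knock-out group the library with a title number from 42 to 44 read higher than the one from 32 to 37. Both controls, numbered 34 and 38, come from the lower series. With this series as a term the log2 changes of Tnfaip3 were 0.66, 0.62 and 0.52, and all 3 stayed past the threshold.

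The cytoplasmic IkB genes did not pass in any comparison. Nfkbia, which encodes IkB-alpha and is the best known feedback target of NF-kB, read 209 and 233 RPM in the control, 252 and 239 in Myc_KO, 181 and 285 in Max_KO, and 200 and 251 in double_KO. The Max_KO libraries enclosed the control. Its log2 difference in Myc_KO was 0.15, with a 95% interval from -0.30 to 0.60, which leaves room for a change of the size seen for Rel. Nfkbib, which encodes IkB-beta, ranged from 56.1 to 62.7 RPM over all 8 libraries, and its log2 differences lay between -0.01 and 0.07. Nfkbie, which encodes IkB-epsilon, read 127 and 129 RPM in the control, 164 and 121 in Myc_KO, 143 and 112 in Max_KO, and 149 and 103 in double_KO. In each knock-out group the library of the higher title numbers lay below the control and the other above it. With the number series as a term, Nfkbie passed in Myc_KO (log2 0.35, adjusted p = 0.00514) and did not in Max_KO (0.21, adjusted p = 0.0518) or double_KO (0.17, adjusted p = 0.0909). Per length of annotated exons, Nfkbia had the highest control level of the 10 genes, at 137 ± 10.4 RPM per kb, a ranking that depends on those lengths. Nfkbie and Tnfaip3 stood at 42.1 ± 0.39 and 39.997 ± 0.36, and Nfkbib at 27.5 ± 1.95 (SD, n = 2).

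**Figure D3:**
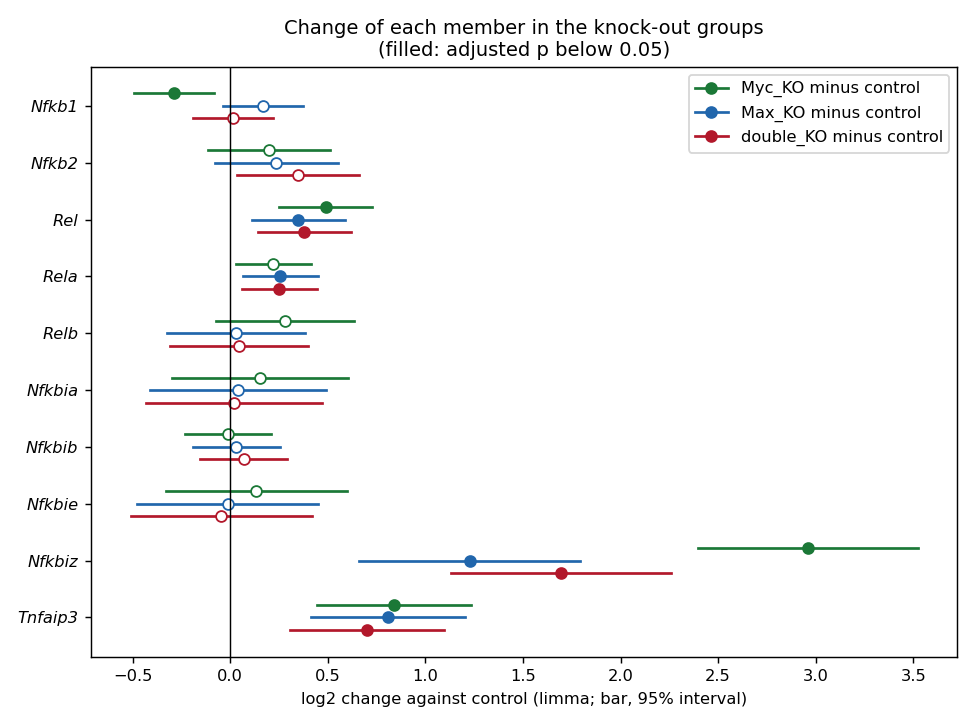
Log2 change of each gene against the control in the 3 knock-out groups from the limma fit, with 95% intervals as bars and filled points where the adjusted p is below 0.05. Nfkbiz lies at 2.96, 1.23 and 1.69, Tnfaip3 between 0.70 and 0.84, and the intervals of Nfkbia, Nfkbib and Nfkbie all include 0.

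The double knock-out was set against the sum of the single knock-outs by an interaction on the log2 scale (double_KO minus Myc_KO minus Max_KO plus control). Nfkbiz and Tnfaip3 passed, in a test that 27.3% of all genes passed. For Nfkbiz the interaction was -2.49 (SE 0.35, limma adjusted p = 0.0023): the single knock-outs sum to a log2 change of 4.19, and the double knock-out gave 1.69. The call was lost with groups from the descriptions (0.165). For Tnfaip3 it was -0.95 (SE 0.24, adjusted p = 0.023), with a sum of 1.65 against 0.70. That call was kept under 11 of 19 alternatives and lost with groups from the descriptions (0.124), the 6 undisputed libraries (0.11) or no trend (0.0677), and without control 1 (0.0821), control 2 (0.0696), Myc_KO 2 (0.054), Max_KO 2 (0.0631) or double_KO 1 (0.0701). The interaction of Rel, -0.46, did not pass (adjusted p = 0.0501).

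Markers of other cells were read beside these changes. The 8 B cell markers summed to 12506 to 12754 RPM in the control and 13557 to 16331 RPM in the knock-out libraries. Ms4a1, Pax5 and Ebf1 of this list rose in each group, and no other marker of it was called. The median log2 changes of the list were 0.18, 0.14 and -0.03 in Myc_KO, Max_KO and double_KO. The NK cell list, with 4 of 5 markers in the table, summed to 0.849 to 2.93 RPM in the control, 42.7 to 72.5 in Myc_KO, 14.6 to 31.6 in Max_KO and 28.2 to 39.1 in double_KO. The myeloid list, with 4 of 8 in the table, summed to 2.57 to 3.51, 19.8 to 30.03, 11.8 to 13.9 and 8.90 to 17.8 RPM. Both sums were thus lowest in the control and highest in Myc_KO, as Nfkbiz was. Between the 2 libraries of a group, the NK sum moved with Nfkbiz in Myc_KO and Max_KO and against it in control and double_KO. The myeloid sum moved with Nfkbiz in control, Myc_KO and double_KO and against it in Max_KO. Most of both sums came from Gzma and from Adgre1. The tested markers were Gzma and Nkg7 of the NK list and Adgre1 and Itgam of the myeloid list. All of these rose in each knock-out group. Median log2 changes of the NK list were 5.14, 3.87 and 4.37 in Myc_KO, Max_KO and double_KO. Those of the myeloid list were 2.53, 2.15 and 1.95. The others in the table, Ncr1, Klrk1, Lyz2 and Csf1r, were not tested and stayed below 1 RPM in every library. Of the 8 T cell markers, 7, 4 and 5 rose in these 3 groups, with Cd3e at 0.0311 and 0.273 RPM in the control and at most 3.36 RPM elsewhere, and Thy1 fell in all 3 groups. The list summed to 279 to 327 RPM in the control and 94.0 to 242 RPM in the knock-out libraries. The 6 plasma cell markers summed to 1206 to 1259 RPM in the control and 574 to 1101 RPM elsewhere. Of the 5 tested, 1, 2 and 1 fell in Myc_KO, Max_KO and double_KO and none rose, with median log2 changes of 0.22, -0.99 and 0.33. The dendritic list, with 4 of 6 in the table, summed to 166 to 194 RPM in the control and 76.6 to 118 RPM elsewhere. In each knock-out group 1 of these rose and 2 fell, with medians of 0.20, 0.15 and 0.06. Over all genes, 24%, 22.3% and 21.8% rose and 21.4%, 17.4% and 16.8% fell. The part of these cells in the changes of the 10 genes was not tested.

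Several genes upstream of the subunits rose in the knock-out groups. Of the 11 genes of the LPS receptor and its adaptors, 6 rose in Myc_KO and 5 each in Max_KO and double_KO, and none fell, where 24%, 22.3% and 21.8% of all genes rose. Under the alternatives 4 to 7, 5 to 8 and 3 to 7 of the 11 were called. The median log2 change was 0.47, 0.35 and 0.38. Cd180, a B cell receptor related to Tlr4 that modulates the LPS response, read 34.6 ± 1.17 RPM in the control and 171 ± 2.21, 90.6 ± 23.9 and 109 ± 9.84 in the Myc, Max and double knock-outs (SD, n = 2), log2 changes of 2.30, 1.36 and 1.65. Tlr4, the LPS receptor, rose by 2.51, 2.04 and 2.36 from a low control level of 4.06 ± 0.12 RPM. Irak2, a kinase-like adaptor of the same pathway, rose by 2.02, 1.13 and 1.30. All 9 of these differences passed in limma (highest adjusted p = 0.00297). Myd88, the main adaptor, did not pass in any group.

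Of the 8 genes of the IKK complex and its kinases, 4 rose in each group and 1, Tab1, fell in Myc_KO and Max_KO, with medians of 0.30, 0.31 and 0.28. Of all genes, 45.4%, 39.7% and 38.6% were called in these comparisons, and under the alternatives 3 to 5 of the 8 were. Chuk, which encodes IKK-alpha, rose from 55.4 ± 3.41 RPM to 88.5 ± 2.57, 84.4 ± 6.51 and 87.0 ± 1.03 (SD, n = 2). Map3k7, the kinase TAK1 that activates IKK, had log2 changes of 0.44, 0.41 and 0.47, and its partner Tab3 had 1.05, 0.73 and 0.85. Ikbkb, which encodes IKK-beta, did not pass in any group. Of the 6 genes of the CBM and LUBAC complexes, which carry antigen receptor and ubiquitin signals to IKK, Rbck1 fell in Myc_KO (-0.38). This call was lost with same-total scaling (0.079) and without control 1 (0.0583), control 2 (0.0587) or Myc_KO 1 (0.0538). Malt1 did not pass in any group.

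In the alternative pathway, 6 of 7 genes were tested. Traf3, which keeps this pathway off, rose by 0.98, 0.88 and 0.77 on the log2 scale. Birc2, which encodes the ubiquitin ligase cIAP1, read 432 ± 21.6 RPM in the control (SD, n = 2) and fell in each group, with log2 changes of -1.21, -0.51 and -0.76, and its call in Max_KO was lost with groups from the descriptions (0.0644) and without control 1 (0.059), control 2 (0.0942) or Max_KO 2 (0.0916). Its relative Birc3 rose in Myc_KO (0.53), a call lost with groups from the descriptions (0.0836). Over the list, 2 genes rose and 1 fell in each single knock-out, while in the double knock-out 1 rose and 1 fell, with medians of 0.26, 0.16 and 0.04. In these comparisons 24%, 22.3% and 21.8% of all genes rose and 21.4%, 17.4% and 16.8% fell, and under the alternatives 3 to 4, 1 to 4 and 2 to 4 of the 6 were called.

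Among 14 other inhibitors, Myc_KO had 7 that rose and 2 that fell, and the remaining groups each had 6 that rose and 2 that fell, with medians of 0.38, 0.20 and 0.08. Cyld, a deubiquitinase that dampens the pathway, rose from 108 ± 3.28 RPM to 178 ± 1.21, 187 ± 11.1 and 179 ± 7.42 (SD, n = 2). Irak3, a decoy kinase that inhibits Toll-like receptor signals, rose by 0.59, 0.87 and 0.63. Tnip2, which encodes an A20-binding protein, fell, with log2 changes of -1.12, -0.87 and -1.09. The atypical IkB genes Bcl3 and Nfkbid, relatives of Nfkbiz, did not pass in any group. Of all genes, 24%, 22.3% and 21.8% rose and 21.4%, 17.4% and 16.8% fell. Under the alternatives 6 to 10, 5 to 8 and 6 to 9 of the 14 were called.

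Of 29 textbook target genes, 27 were tested. Myc_KO had 5 that rose and 9 that fell, Max_KO had 4 and 5, and double_KO had 4 and 6, with medians of -0.08, -0.26 and -0.10. Junb, a subunit of AP-1, read 349 ± 13.5 RPM in the control and 122 ± 23.7, 197 ± 22.5 and 168 ± 11.3 in the knock-out groups (SD, n = 2). Ltb, which encodes lymphotoxin beta, fell, with log2 changes of -0.998, -1.67 and -1.54. Cd86, a costimulatory molecule, fell in Myc_KO (-0.82) and double_KO (-0.85) and did not pass in Max_KO (-0.26, limma adjusted p = 0.0767). Cflar, an inhibitor of cell death, and the chemokine genes Ccl22 and Cxcl10 rose in each group. These genes were named after their values were seen. So were Myd88, Tab1, Ikbkb, Bcl3 and Nfkbid, and the markers Ms4a1, Pax5, Ebf1, Thy1 and Cd3e. The same holds for the markers Gzma, Nkg7, Ncr1, Klrk1, Adgre1, Itgam, Lyz2 and Csf1r. Over the list, 14, 9 and 10 of 27 were called, where 45.4%, 39.7% and 38.6% of all genes were, so the counts are no result about the targets. Under the alternatives 10 to 16, 6 to 13 and 8 to 14 were called.

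**Figure D4:**
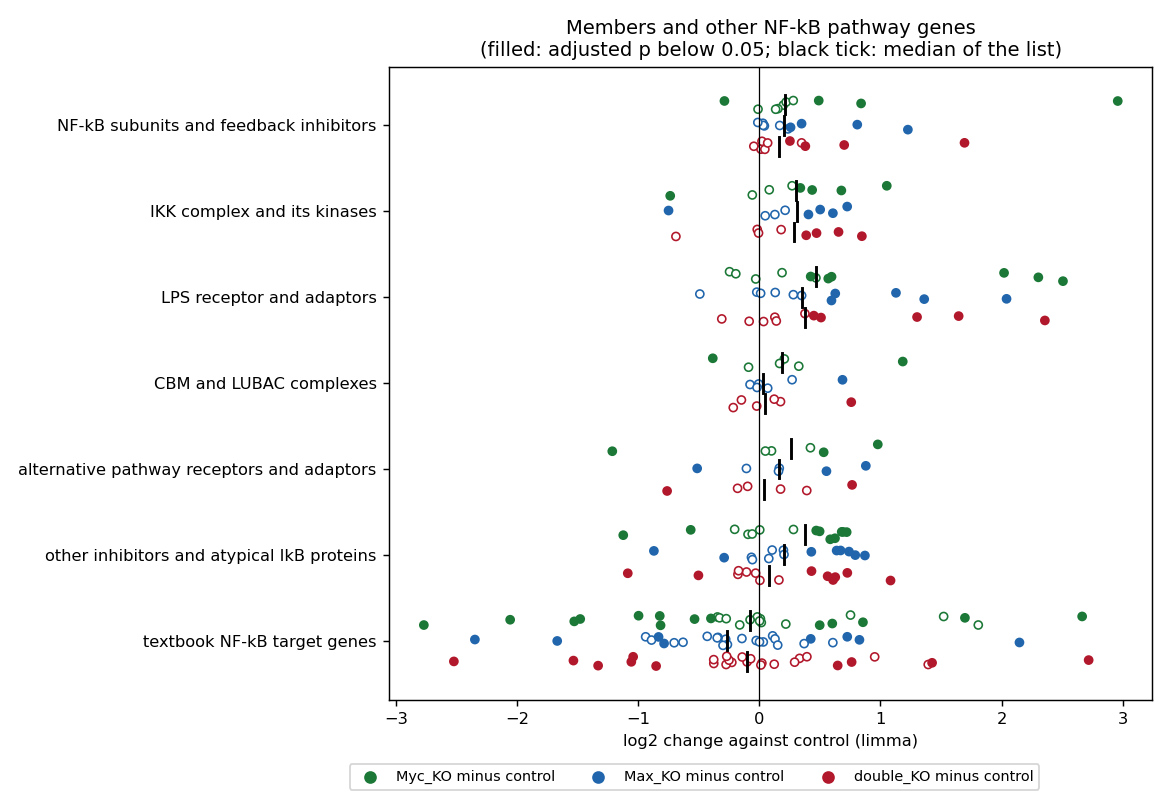
Log2 change against the control (limma) of the 10 genes and of 6 other lists of the NF-kB pathway, with a point for each tested gene, filled where the adjusted p is below 0.05, and a black tick at the median of each list. The medians of the LPS receptor list lie at 0.47, 0.35 and 0.38, and those of the target genes at -0.08, -0.26 and -0.10.

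The genes whose pattern over the 8 libraries was most like that of Nfkbiz were Gm6377, Ppfibp2 and S1pr3, with root mean square differences of 0.25, 0.25 and 0.28 on the centred log2 scale. S1pr3, a receptor for sphingosine 1-phosphate, read 12.7 and 21.5 RPM in the control, 90.5 and 94.3 in Myc_KO, 30.5 and 42.5 in Max_KO, and 41.6 and 36.1 in double_KO. For Nfkb1, the member with the lowest mean change, they were Actg1, Aebp2 and Ppp1r18, with differences of 0.07 each. Actg1, which encodes a cytoplasmic actin, read 2296 and 2079 RPM in the control and 1885 and 1755 in Myc_KO. These likenesses are descriptions over 8 libraries that share their scaling.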

How the data were processed

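The authors deposited 1 table of log2 values for 15681 genes in 8 libraries. Per the submitters' processing notes, the tools were CASAVA 1.8, RSEM 1.2.3 and cutadapt, on build GRCm38; aligner, annotation, strand and filters were not given in the sources used here. From their pattern, the deposited log2 values were read as log2 of (estimated reads + 0.5) per 1000000 reads of an effective library size, since the reads recovered this way are multiples of 0.01. The reads are not whole, so no count test was run. The ratio of total to effective size reached 1.09 and 1.04 in control libraries and lay between 0.956 and 0.995 elsewhere. A change is thus relative to most other genes of its library.

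Groups follow the sample titles. Gene symbols, positions and exon lengths came from GENCODE on GRCm38 and named 15622 genes. The design foresaw log2(value + 1) for linear values; the values were already log2 and were used as deposited. The filter kept genes that reached 1 RPM in 2 or more libraries. A single limma 3.58.1 model in R 4.3.3 held the 4 groups and all 8 libraries (lmFit, contrasts, eBayes with a mean-variance trend, 4 residual and 4.23 prior degrees of freedom), tested on simulated data. Tests were two-sided, adjusted by Benjamini-Hochberg over the 12489 genes tested in each of 7 comparisons. With 2 libraries a group, single-gene permutation could not reach a small p. Python 3.11.15, pandas 2.3.3, numpy 2.4.6 and matplotlib 3.10.9 did the rest.

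The members and lists were chosen with earlier results of these data known. Every member is described; of each other list, the 3 genes with the lowest adjusted p against control are named, with Myc and Max as checks; 1 gene that met this rule is not reported here. For the highest and the lowest mean change, the 3 most alike genes are named. Alternatives were groups from the descriptions, only the 6 libraries whose labels do not conflict, other scalings, filters, pseudocount, weights and thresholds, the title number series, a replicate block, only the groups compared, and each library left out.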

Additional observations from a re-analysis of the deposited data

Results flagged for a closer look

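The effect of the Myc knock-out on Nfkbiz differed between cells with and without the Max knock-out: the interaction was -2.49 on the log2 scale (limma adjusted p = 0.0023). Max transcript remained in both groups with the Max knock-out, at 16.4 and 15.5 RPM in Max_KO and 28.6 and 31.2 RPM in double_KO. Nfkbiz was 2.96 higher in Myc_KO than in the control, in both libraries, and 0.47 higher in double_KO than in Max_KO, where the libraries overlapped. The same test gave -0.95 for Tnfaip3 (limma adjusted p = 0.023), which was 0.84 higher in Myc_KO than in the control and differed by -0.11 between double_KO and Max_KO. Neither passed with groups from the descriptions (0.165 and 0.124), and the cause of these differences was not tested. With groups from the titles, 27.3% of all genes passed the interaction test, so passing it was not particular to these genes.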

How the results depend on the processing

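For the 16 called changes of members, the alternatives gave 342 values, of which 260 kept the call, 81 kept the direction and lost the call, and 1 reversed: Nfkb1 in Myc_KO, at 0.041 with quantile normalization. For the 18 changes against control that were not called, 390 values included 17 that passed and 37 that changed sign. Members called (4, 4 and 4 against control in Myc_KO, Max_KO and double_KO, 2 in Max_KO minus Myc_KO, 0 in double_KO minus Myc_KO and 2 in the interaction) became as follows. Not every change is listed, so a count left out under a setting did not necessarily stay the same. With no mean-variance trend, Max_KO and double_KO had 2 each, Max_KO minus Myc_KO 0 and the interaction 1. At a threshold of 0.01 these were 2, 1, 0 and 1. Nfkb1 in Myc_KO was lost both with no trend (0.0704) and at 0.01 (0.0297). With quantile normalization, Myc_KO lost Nfkb1 (0.689), and Max_KO lost Rel (0.0655) and Rela (0.0845) and gained Nfkb1 (0.00241). In double_KO that setting lost Rela (0.0898) and gained Nfkb1 (0.0112). With groups from the descriptions, Max_KO minus Myc_KO and the interaction had 0 each. Against control this reading gave 5, 3 and 3: in Myc_KO it lost Nfkb1 (0.602) and gained Nfkb2 (0.0203) and Rela (0.041), in Max_KO it lost Nfkbiz (0.085), and in double_KO it lost Rela (0.087). With only the 6 undisputed libraries, Max_KO minus Myc_KO and the interaction had 1 each. With only the groups compared, Max_KO minus Myc_KO had 0 and double_KO minus Myc_KO 1. With the title number series as a term, double_KO minus Myc_KO had 1 and the interaction 4, and with same-total scaling the interaction had 4. Leaving out each library gave 0 (without control 1) to 4 in Max_KO, 1 (without control 1) to 4 in double_KO, 0 (without Myc_KO 1) to 3 in Max_KO minus Myc_KO, 0 to 1 (without Max_KO 1) in double_KO minus Myc_KO, and 1 (without control 1) to 4 (without Max_KO 1) in the interaction.

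Uncalled log2 changes reversed as follows. With groups from the descriptions, Nfkb1 in double_KO was -0.17, and Nfkbib was 0.070 in Myc_KO and -0.012 in double_KO. With the 6 undisputed libraries, Nfkb1 in double_KO was -0.008 and Nfkbib in Myc_KO 0.063. With median-of-ratios scaling, Nfkb1 in double_KO was -0.004. With quantile normalization, values in Max_KO and double_KO were -0.070 and -0.066 for Relb, -0.028 and -0.036 for Nfkbia, and -0.068 and -0.039 for Nfkbib. With same-total scaling, Nfkbib in Myc_KO was 0.135, and Nfkbie was 0.094 in Max_KO and 0.076 in double_KO. With the title number series as a term, values in Max_KO and double_KO were -0.073 and -0.057 for Relb, -0.11 and -0.13 for Nfkbia, and 0.21 and 0.17 for Nfkbie, and Nfkbib in Myc_KO was 0.008. Leaving out each library gave -0.069 to 0.095 for Nfkb1 in double_KO. For Relb it gave -0.24 to 0.30 in Max_KO and -0.009 to 0.100 in double_KO. For Nfkbia it gave -0.285 to 0.368 in Max_KO and -0.14 to 0.18 in double_KO. For Nfkbib it gave -0.086 to 0.063 in Myc_KO, -0.041 to 0.104 in Max_KO and -0.004 to 0.14 in double_KO. For Nfkbie it gave -0.086 to 0.355 in Myc_KO, -0.19 to 0.16 in Max_KO and -0.31 to 0.22 in double_KO. For the other pathway genes the same alternatives were applied after seeing the data, and Rbck1 in Max_KO reversed, to 0.029 with same-total scaling. The causes were not tested.

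Replicate numbers of the descriptions are shared by control and Max_KO alone under the titles. Deviations of same-numbered libraries correlated at -0.105 over genes. With the replicate block, 3 members were called in Max_KO, and with the crossed replicate block, chosen after seeing the data, also 3. With 2 libraries a group, leaving out a library leaves 1, which is assumed to vary like the other groups.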
